A study of Mus musculus with 31 samples.

Results

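The comparison described here set uteri of estradiol-treated MISS KO mice against uteri of estradiol-treated MISS WT mice, with 4 arrays of each genotype chosen by their labels, 8 of the 31 arrays of the series. MISS KO E2 and MISS WT E2 mice were both on C57BL6/N. Their ovaries were removed when they were 4 weeks old, 3 weeks of recovery followed, and uteri were taken 6 h after a subcutaneous injection of 8 µg/kg of 17β-estradiol (E2) in castor oil. MISS KO PLB and MISS WT PLB mice, 4 arrays each, received castor oil with 0 µg/kg. A separate line, AF2 on C57BL6/J, was used to group genes by their estradiol response (AF2 WT) and for 1 further comparison (AF2 KO), under the same surgery, dose and time. The labels use KO for the mutant of both lines. From knowledge outside the labels, both carry a changed estrogen receptor α (ERα, gene Esr1) and not a deletion of the gene. The MISS receptor lacks the site for palmitate, a lipid anchor, and does not reach the cell membrane, and the AF2 receptor lacks activation function 2, the part that recruits coactivators.

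ERα is a hormone-activated transcription factor. Most of it sits in the nucleus, where it binds estrogen response elements or other factors on DNA. A small pool is held at the plasma membrane by that anchor, where it meets G proteins, Src and the PI3 kinase and MAP kinase pathways. In the uterus of ovariectomised rodents a single dose of estradiol gives early water uptake, a burst of RNA and protein synthesis and, later, division of epithelial cells. Secreted and membrane proteins are folded in the endoplasmic reticulum (ER) by chaperones, and a rising load there is met by the unfolded protein response.

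Each array reads whole-uterus RNA in 1 colour, and a level is the log2 signal of a probe minus the 75th percentile of its array. Levels of different probes are not comparable with each other. Differences are MISS KO minus MISS WT on the log2 scale, so that −1 is a level 2 times lower in KO, and a gene was called at an adjusted p under 0.05 over 26873 genes (limma, Benjamini-Hochberg). Of the probes, 61.8 to 71.1% were well above background on MISS KO E2 arrays and 67.4 to 71.7% on MISS WT E2 arrays, and 0 spots were saturated. The 4 slides each held 1 array of either genotype, and the leading principal component of the 8 arrays (28.9% of the variance) followed the slide. The next (20.5%) separated the genotypes, with MISS KO E2 arrays at −48.6 to −6.5 and MISS WT E2 arrays at 3 to 44.1. The number of arrays limits the precision, and a change in the share of a cell type cannot be told apart from a change of RNA per cell. The labels number the samples, but whether each array is 1 mouse or a pool is not given in the sources used here.

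Esr1, the targeted gene, was detected on all 8 arrays. Its brightest probe (chromosome 10, 5343056 to 5343115, mm9) had levels of 3.41, 2.84, 3.36 and 3.37 in MISS KO E2, against 2.82, 2.88, 2.72 and 3 in MISS WT E2. KO array 2 lay among the WT values and the other 3 above them. The difference of 0.39 ± 0.12 (SE) had an adjusted p of 0.0914 and was not called. It was called without KO array 2, at 0.53 with adjusted p = 0.0127, and with the slide as a block (adjusted p = 0.0386). Tested over all probes, the Esr1 probe at 5489352 to 5489411 differed by 0.37 ± 0.10 (SE, adjusted p = 0.036) and the one at 5379218 to 5379277 by 0.61 ± 0.14 (SE, adjusted p = 0.0168), both higher in KO. The remaining probe, at 5345046 to 5345105, differed by 0.62 ± 0.23 (SE, adjusted p = 0.204). A changed amino acid leaves these probes their target, so they check no genotype. Under placebo the brightest probe differed by 0.05 (adjusted p = 0.96). Of 6 receptor genes, among them Esr1, Esr2 and Pgr, 0 were called and 2 had an unadjusted p under 0.05, which 12.9% of all genes had.

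Between MISS KO E2 and MISS WT E2, 758 of 26873 genes were called (2.82%). Of these, 235 were higher in KO (0.874% of all genes) and 523 were lower (1.95%). The differences were mostly small, with 164 called genes at 2-fold or more, 32 of them higher and 132 lower. The median over all genes was −0.05, and 60% of all genes had a difference below zero. Of the 758, 666 had KO and WT values that did not overlap, against 8.07% of all genes, and 731 had the same sign on all 4 slides, against 30% of all genes. The count rested on each array, with 434 called without WT array 1, 473 without WT array 2, 446 without WT array 3 and 481 without KO array 3. Without WT array 4 it was 1064. With quantile normalization, which brought the median of all genes to 0.002, 276 genes were higher and 365 lower, so that the share of higher calls was 43.1% in place of 31%.

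The ER chaperone list held 20 tested genes, mostly chaperones and folding enzymes. Among its other members were Herpud1, of ER-associated degradation, and Sec61a1 and Sec61b, of the channel into the ER. Of the 20 genes, 11 were lower in the mutant under estradiol (1.95% of all genes were) and 0 higher. Their median difference was −0.44, against −0.05 over all genes. Seen one by one, 19 were below zero (60% of all genes were), and 17 had all KO values below all WT values (8.07% of all genes did not overlap in either direction). Hspa5 encodes BiP, the main Hsp70 chaperone of the ER. Its levels were 6.52, 6.43, 6.27 and 6.23 in MISS KO E2, against 7.03, 6.96, 7.12 and 7.19 in MISS WT E2. The groups did not overlap, and KO was lower by −0.71 ± 0.12 (SE, adjusted p = 0.000632), or 1.64-fold.

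Dnajb9, an ER cochaperone of BiP, had levels of 1.64, 1.58, 1.43 and 1.73 in MISS KO E2, against 2.44, 2.3, 2.58 and 2.61 in MISS WT E2. All KO arrays lay below all WT arrays, a difference of −0.89 ± 0.09 (SE, adjusted p = 1.89e-06). Herpud1, a membrane protein of ER-associated degradation, had levels of 4.49, 4.38, 4.65 and 4.08 in MISS KO E2, against 5.06, 4.96, 5.06 and 4.93 in MISS WT E2. It too was lower without overlap, by −0.60 ± 0.09 (SE, adjusted p = 0.000275). Manf, a secreted protein of ER stress, had levels of 3.08, 3.03, 2.81 and 3.24 in MISS KO E2, against 3.8, 3.72, 3.88 and 4.2 in MISS WT E2. The difference was −0.86 ± 0.16 (SE, adjusted p = 0.00175), and the groups did not overlap.

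The other called members were Creld2 (−0.73), Pdia6 (−0.50), Hsp90b1 (−0.48), Dnajc3 (−0.47), Dnajb11 (−0.42), Sec61b (−0.38) and Sec61a1 (−0.31). They cover a disulfide isomerase (Pdia6), the ER form of HSP90 (Hsp90b1), Hsp40 cochaperones of BiP (Dnajc3, Dnajb11) and the channel through which new chains enter the ER (Sec61a1, Sec61b). Calr (−0.46, adjusted p = 0.0698), Sdf2l1 (−0.83, adjusted p = 0.155), Xbp1 (−0.38, adjusted p = 0.337) and Ero1a (0.01) were among those that did not pass. The AF2 WT arrays do not enter the MISS differences, but they share the fit's estimate of spread with them. On those arrays estradiol raised 18 of the 20 (27.6% of all genes were called higher there), 10 of them by 2-fold or more. Dnajb9 was not among the 18 (0.11 in AF2 WT, adjusted p = 0.289). Under placebo 0 of the 20 were called between MISS KO and MISS WT (0.897% of all genes were) and the median was −0.12. Yet 17 of the 20 were below zero under placebo too, where the median over all genes was 0.032. The difference under estradiol exceeded that under placebo for 2 of them, Dnajb9 (by −0.99, adjusted p = 8.15e-05) and Herpud1 (by −0.81, adjusted p = 0.00136). For the other 18 that test did not pass. The number called lower was 6 without KO array 3 or WT array 4, 7 without KO array 2, WT array 1 or WT array 3, and 6 with quantile normalization. It was 4 with only the 8 arrays fitted and 7 with only the 16 MISS arrays.

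**Figure D1:**
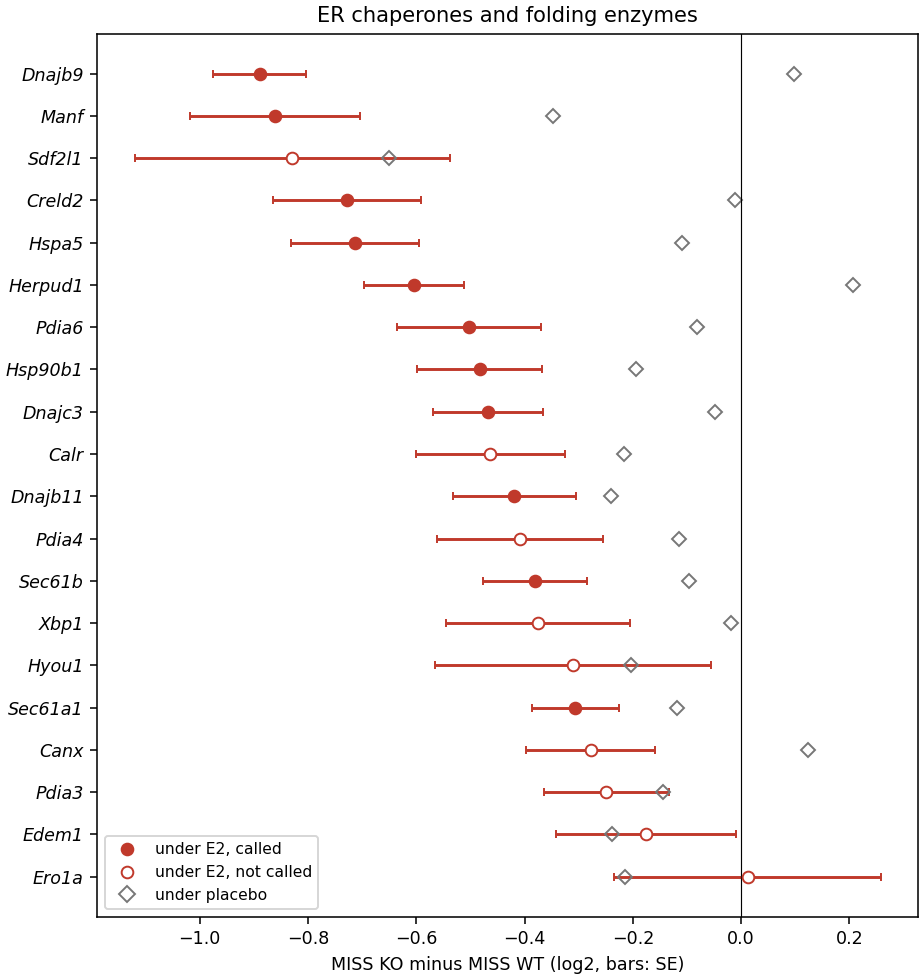
Log2 difference between MISS KO and MISS WT for each tested gene of the ER chaperone list, under estradiol (circles with standard error, filled where called) and under placebo (diamonds). Of the 20 genes, 19 lie below zero under estradiol, with a median of −0.44, and 17 under placebo, with a median of −0.12.

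The promoters of many such genes hold the ER stress response element, a CCAAT box and a CCACG box 9 bases apart, read by ATF6 and NF-Y. RefSeq promoter sequences (GRCm38.p6, 250 bases before to 50 after the start) were found for 13975 tested genes, and the letters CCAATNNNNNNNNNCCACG were searched on both strands. The element was in 23 of the 13975 promoters (0.165%) and in 7 of the 17 genes of the ER chaperone list with an entry (41.2%). Over all genes with the element, 7 of 23 were called lower (30.4%) and 0 higher. Those 7 were Creld2, Hspa5, Pdia6, Hsp90b1, Ero1b, Dnajc3 and Syvn1. All but Ero1b and Syvn1 are members of the chaperone list, so this share is not separate from the chaperone result. Calr and Canx hold the element too and were not called. The chaperone list members Dnajb9, Herpud1, Dnajb11 and Sec61b were called lower with no full match in their promoter sequence. Of all genes with an entry 2.35% were called lower. The 23 had a median difference of −0.19, and 16 of them were below zero. A match describes letters and is not shown to be a site in use. The stretches below are from the called chaperone genes, written along the strand of the gene, with both boxes in capitals. They are shown to give the bases around the element in the genes that were lower.
Creld2 (chr15:88819495-88819563, plus strand): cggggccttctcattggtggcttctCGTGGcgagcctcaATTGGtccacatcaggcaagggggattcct
Hspa5 (chr2:34772000-34772068, plus strand): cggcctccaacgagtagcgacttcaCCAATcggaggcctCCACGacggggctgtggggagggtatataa
Pdia6 (chr12:17266466-17266534, plus strand): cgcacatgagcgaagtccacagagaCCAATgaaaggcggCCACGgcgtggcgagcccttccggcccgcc
Dnajc3 (chr14:118937802-118937870, plus strand): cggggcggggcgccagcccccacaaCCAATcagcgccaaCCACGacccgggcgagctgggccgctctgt
Hsp90b1, far match (chr10:86705613-86705681, minus strand): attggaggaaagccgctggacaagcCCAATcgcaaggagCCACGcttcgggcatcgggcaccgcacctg
Hsp90b1, near match (chr10:86705508-86705576, minus strand): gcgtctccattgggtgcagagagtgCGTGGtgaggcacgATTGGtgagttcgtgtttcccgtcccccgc
In Creld2 and in the near match of Hsp90b1 the element reads on the opposite strand, so that the capitals show its complement.

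Motifs of the receptor itself were searched in the same windows. The full estrogen response element GGTCANNNTGACC was in 8 of the 13975 promoters (0.0572%) and in 0 of the called ones. A single arm of it, GGTCA, which the full element contains, was searched on both strands as well and was in 45.7% of the promoters of lower genes, 46.9% of those of higher genes and 42.9% of all. The AP-1 motif TGANTCA, on both strands, was in 7.32% of the promoters of lower genes, 8.84% of those of higher genes and 7.08% of all. These windows cover the region next to the start only.

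Lists of other ER genes and of transport out of the ER, chosen after the chaperone values were seen, had fewer calls. They are counted here without members of the chaperone list, beside 60% of all genes below zero and 1.95% called lower. Of 23 genes of the translocon and signal peptidase 23 were below zero and 0 were called, with 11 lower once the slide was a block. The full list of 25 also holds Sec61a1 and Sec61b, both called lower and counted above with the chaperone list. Of 40 genes of COPI and COPII transport 34 were below zero and 6 were lower (13 with the slide block), among them Cope (−0.43), Uso1 (−0.41) and Surf4 (−0.30). Of 27 genes of the unfolded protein response and ER-associated degradation 21 were below zero, 5 were lower (7 with the slide block) and 0 higher. They include the ER stress sensors Ern1, which encodes IRE1 (−0.44 ± 0.11 SE, adjusted p = 0.0197), and Eif2ak3, which encodes PERK (−0.53 ± 0.11 SE, adjusted p = 0.00505). N-glycan transfer had 23 of 30 below zero and 4 lower (8 with the slide block). With that block 7.49% of all genes were called. Cytosolic heat shock genes gave 1 of 13, Chordc1, a cochaperone of HSP90 (−0.50, adjusted p = 0.0188), which was not called without KO array 2 or 3 or WT array 4 (adjusted p = 0.0634 to 0.0837). All 13 were below zero.

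Tissue kallikreins gave the other large group. These secreted serine proteases lie in 1 cluster of near-identical mouse genes, so that probes of different members may read each other's RNA and the members are not independent. Of 15 tested members 11 were lower (1.95% of all genes were) and 0 higher, with a median of −1.43. All 12 genes of the Klk1 and Klk1b family had every KO value below every WT value, where 8.07% of all genes did not overlap. Klk1 had levels of 2.75, 2.23, 2.39 and 2.29 in MISS KO E2, against 3.96, 3.8, 4.17 and 3.72 in MISS WT E2. The groups lay clearly apart, and KO was lower by −1.50 ± 0.17 (SE, adjusted p = 7.45e-06).

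Klk1b8 had levels of 1.47, 1.06, 1.33 and 1.21 in MISS KO E2, against 2.85, 2.54, 3 and 2.59 in MISS WT E2 (−1.48, adjusted p = 1.98e-05). Klk1b5 (−1.53) and Klk1b26 (−1.56) differed by similar amounts, and Klk1b9 had −1.64 with adjusted p = 0.0657. Klk8, Klk10 and Klk11, which lie outside that family, had 0.28, 0.52 and 0.09 and were not called. Estradiol raised 11 of the 12 family members by 2-fold or more in AF2 WT, where Klk1 changed by 6.12. The family differed between the genotypes under placebo too. Its 12 members had a placebo median of −0.77, and 4 were lower there, Klk1, Klk1b4, Klk1b24 and Klk1b27 (0.476% of all genes were lower under placebo). The difference under estradiol exceeded that under placebo for Klk1b8 alone (by −1.06, adjusted p = 0.0481), and the test did not pass for the other 11.

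**Figure D2:**
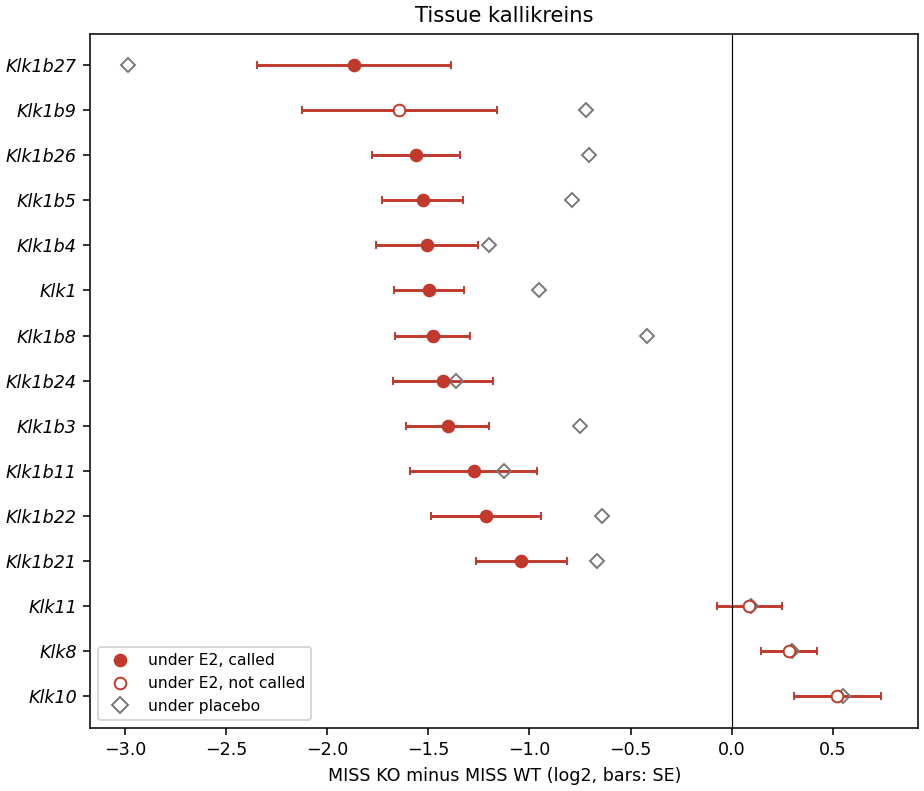
Log2 difference between MISS KO and MISS WT for each tested kallikrein gene, under estradiol (circles with standard error, filled where called) and under placebo (diamonds). The 12 Klk1 and Klk1b genes lie below zero under both conditions, while Klk8, Klk10 and Klk11 lie above it.

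The largest decreases were spread over enzymes, transporters and genes of other tissues. Akr1c14, a 3α-hydroxysteroid dehydrogenase that inactivates steroids, had levels of −0.57, −0.8, −2.06 and −2 in MISS KO E2, against 1.93, 1.92, 2.4 and 1.67 in MISS WT E2. The groups lay far apart, with KO lower by −3.34 ± 0.35 (SE, adjusted p = 2.47e-06). Under placebo the difference was as large, at −3.39, and the difference between the conditions was 0.05 (adjusted p = 0.985).

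P4ha2, a catalytic subunit of the prolyl 4-hydroxylase that stabilises collagen, differed under estradiol. Its levels were 3.98, 3.6, 4.05 and 3.49 in MISS KO E2, against 6.16, 5.93, 6.18 and 5.74 in MISS WT E2. KO was 4.67-fold lower (−2.22 ± 0.22 SE, adjusted p = 1.89e-06), with no overlap. Under placebo the difference was −0.15, and the test of estradiol against placebo gave −2.08 (adjusted p = 0.000455).

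Nkpd1, an NTPase-domain gene, had levels of −0.59, −1.04, −0.78 and −0.3 in MISS KO E2, against 1.5, 1.59, 1.38 and 1.24 in MISS WT E2 (−2.10 ± 0.24 SE, adjusted p = 5.26e-06). Slc9a2, a sodium/proton exchanger, had levels of −3.25, −3.83, −4.09 and −3.56 in MISS KO E2, against −1.56, −1.75, −1.64 and −1.95 in MISS WT E2 (−1.96 ± 0.29 SE, adjusted p = 0.000146). Neither pair of groups overlapped, and both differences exceeded those under placebo, Nkpd1 by −2.43 and Slc9a2 by −2.75. Aoc1, the diamine oxidase that breaks down histamine, had levels of −4.81, −4.14, −4.51 and −4.38 in MISS KO E2, against −2.23, −2.02, −2 and −1.5 in MISS WT E2. It was 5.75-fold lower in KO (adjusted p = 0.00382).

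Brsk2, a kinase related to AMPK (−2.22), Crocc2 (−1.96), Ecel1, a membrane metallopeptidase (−2.01), and Dnali1, a dynein chain of cilia (−2.09), were lower as well. Another Brsk2 probe gave −0.36 and was not called, and Ecel1 was not called without WT array 1 (adjusted p = 0.0502). Dnali1 was well above background on only 1 MISS KO E2 array, so the size of its difference is uncertain. It was not called with only the 8 arrays fitted (adjusted p = 0.107). Several of the largest decreases were well above background on no MISS KO E2 array, so that only a bound holds. They were Fam163a at least 5.29-fold, Cyp3a25 (a liver cytochrome P450) at least 4.49-fold, Rhd (the Rh blood group protein) at least 2.53-fold, Disp2 at least 2.3-fold and Insm1 (a neuroendocrine transcription factor) at least 2.25-fold lower. Fut4-ps1 was at least 1.72-fold lower. It is a pseudogene of Fut4, which was lower itself by −0.51 (adjusted p = 0.011), and probes of the pair may share RNA. With normexp Rhd (−0.52, adjusted p = 0.0669) and Fut4-ps1 (−0.35, adjusted p = 0.298) were not called.

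The largest increases, of at most 1.88, were smaller than the largest decreases. Stac2, an adaptor of voltage-gated calcium channels, had levels of 0.71, 1.24, 0.95 and 0.56 in MISS KO E2, against −1.18, −1.22, −1.39 and −0.3 in MISS WT E2. It was 3.69-fold higher in KO without overlap (1.88 ± 0.25 SE, adjusted p = 4.93e-05). Lpar3, a lysophosphatidic acid receptor needed for the timing of implantation in mice, had levels of −1.52, −2.06, −1.85 and −1.33 in MISS KO E2, against −4.24, −4.1, −3.5 and −2.39 in MISS WT E2 (1.87 ± 0.32 SE, adjusted p = 0.000806). WT array 4 was the nearest to the mutants for both genes.

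Hdc, the enzyme that makes histamine, had levels of 4.16, 4.13, 4 and 4.47 in MISS KO E2, against 2.15, 2.41, 2.08 and 3.51 in MISS WT E2. KO was higher by 1.65 ± 0.43 (SE, adjusted p = 0.0305), and WT array 4 again stood nearest. This call was lost without any one of the other 7 arrays, with adjusted p of 0.0608 (without KO array 1) to 0.125 (without WT array 3). Hdc, higher, and Aoc1, lower, act at opposite ends of histamine turnover. Among the 7 tested mast cell markers, a cell type that also makes histamine, Hdc was higher, Kit was lower (−0.80, adjusted p = 0.00354) and the mean over the list lay at −0.10 to 0.31 in MISS KO E2 and 0.05 to 0.27 in MISS WT E2. The part of mast cells in these values was not tested.

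Nrg1, a ligand of ERBB receptors, had levels of 2.01, 2.63, 2.32 and 2.18 in MISS KO E2, against 1.45, 1, 0.69 and 1.12 in MISS WT E2 (1.22 ± 0.19 SE, adjusted p = 0.000256). Spon2, a matrix protein, had levels of 4.8, 5.45, 4.51 and 4.83 in MISS KO E2, against 3.86, 3.82, 3.51 and 3.89 in MISS WT E2 (1.12 ± 0.18 SE, adjusted p = 0.000421). Fbxo32, the ubiquitin ligase atrogin-1, had levels of 0.82, 0.63, 0.99 and 0.76 in MISS KO E2, against −0.37, −0.19, −0.68 and −0.05 in MISS WT E2 (1.12, adjusted p = 0.000806). None of the 3 overlapped between the genotypes. Estradiol raised Nrg1 and Spon2 in AF2 WT (by 1.95 and 2.14) and lowered Fbxo32 there (by −1.99), so genes higher in the mutant include both kinds.

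The other genes among the 15 largest increases were Jakmip1 (1.61), Ap3b2 (1.51), Cyp26a1 (1.48), Lgi1 (at least 2.13-fold), Scel, C1qtnf9 (1.27), Serpina1c (1.22), Hsd17b1 (1.14) and Cndp1 (1.12). Scel was not well above background on any of the 8 arrays, so it has no fold. Other probes of Jakmip1 (0.01), Ap3b2 and Lgi1 were not called. Serpina1c was lost without each of 7 arrays in turn (adjusted p = 0.0684 to 0.176), all but KO array 4. Scel was lost without KO array 2 or 4 or WT array 1 or 2 (adjusted p = 0.0663 to 0.0946), and Lgi1 without WT array 2 (adjusted p = 0.056). With normexp background correction Cyp26a1 (0.38, adjusted p = 0.536), Lgi1 (0.25, adjusted p = 0.637) and Cndp1 (0.25, adjusted p = 0.283) were smaller and not called, nor was Scel (adjusted p = 0.867).

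**Figure D3:**
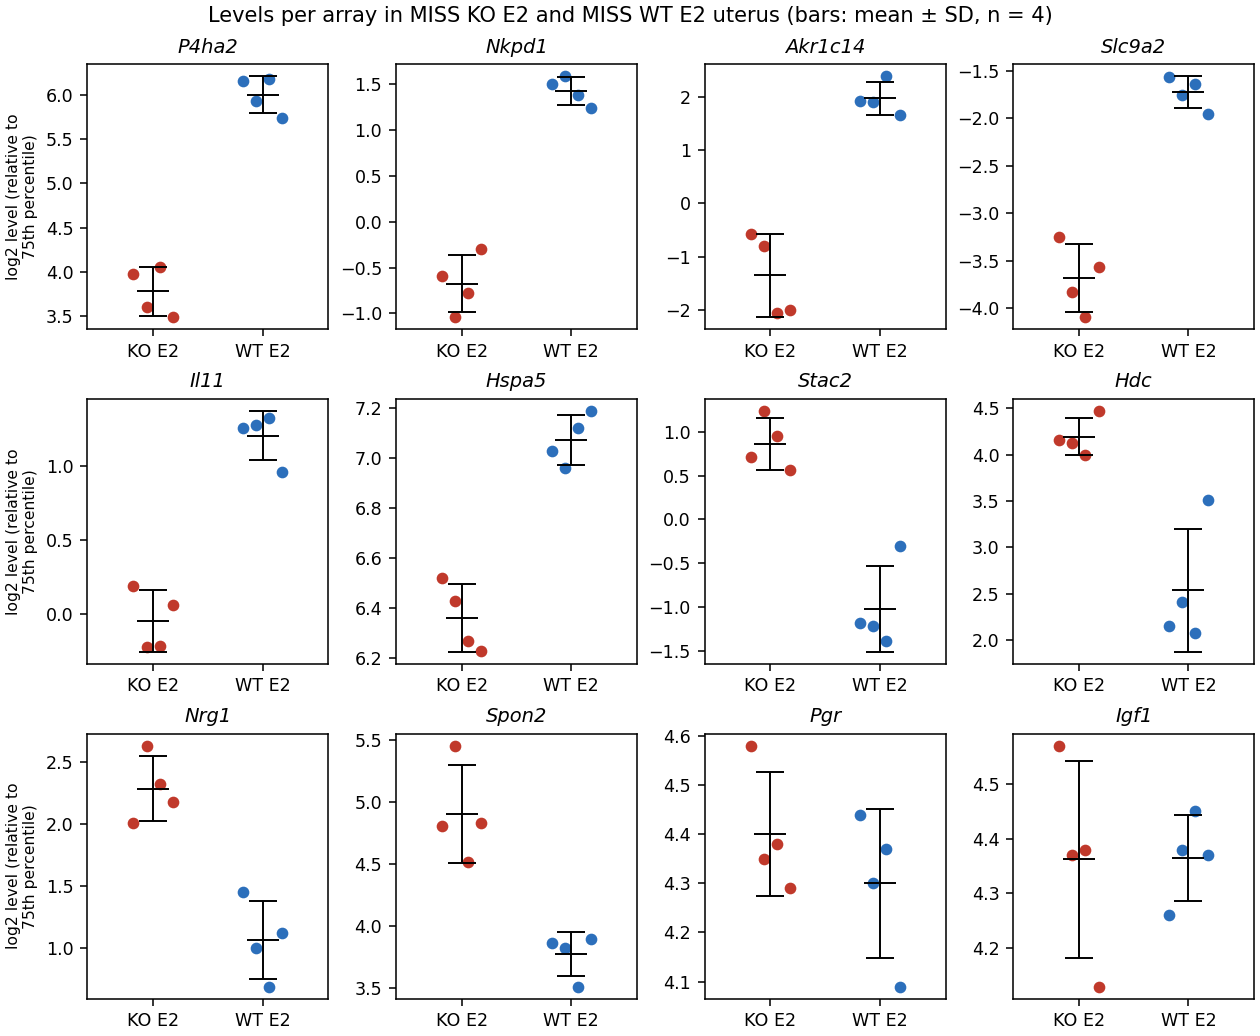
Level on each array (log2 signal minus the 75th percentile of the array) of 12 genes, MISS KO E2 left and MISS WT E2 right in each panel, with the mean and SD of 4 arrays. P4ha2, Nkpd1, Akr1c14, Slc9a2, Il11 and Hspa5 lie lower in KO, Stac2, Hdc, Nrg1 and Spon2 higher, and Pgr and Igf1 overlap.

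Most textbook targets of estradiol did not pass the test between the genotypes. Of 27 classical estrogen targets 2 were lower, Klk1 and Ramp3, and 0 higher. These calls were 7.41% of the list, above the 2.82% of all genes. Of the 27, 7 had an unadjusted p under 0.05, a share above the 12.9% of all genes. With the slide as a block 2 of the 27 were higher and 4 lower, where 7.49% of all genes were called. Pgr, the progesterone receptor gene, had levels of 4.58, 4.35, 4.38 and 4.29 in MISS KO E2, against 4.44, 4.3, 4.37 and 4.09 in MISS WT E2 (0.10 ± 0.11 SE, adjusted p = 0.797). Igf1, a stromal growth factor, had levels of 4.57, 4.37, 4.38 and 4.13 in MISS KO E2, against 4.26, 4.38, 4.45 and 4.37 in MISS WT E2 (0.00 ± 0.13 SE). Both overlapped between the genotypes, although estradiol raised both in AF2 WT, by 2.43 and 2.87.

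Cdkn1a (−0.08 ± 0.17 SE), Greb1 (−0.41 ± 0.45), Lif (−0.34 ± 0.28), Ltf (0.15 ± 0.46), C3 (−0.41 ± 0.24) and Mki67 (0.06 ± 0.28) overlapped too and were not called. Greb1 and Ltf had the widest errors of these. Gdf15, a stress-responsive cytokine that estradiol raised by 9 in AF2 WT, had levels of 3.36, 3.13, 3.06 and 3.23 in MISS KO E2, against 4.09, 4.25, 3.82 and 3.85 in MISS WT E2. These did not overlap, yet the difference of −0.81 ± 0.29 (SE) had an adjusted p of 0.16. Ramp3, a partner of the calcitonin-like receptor, was called at −1.26 ± 0.31 (SE, adjusted p = 0.0231) with KO and WT values that overlapped. It was not called without KO array 3 or 4 or WT array 1, 2 or 3 (adjusted p = 0.0734 to 0.104).

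Genes that signal from membrane receptors were looked at next. Of 21 genes tied to membrane ERα signalling 2 were called (2.82% of all genes were), both lower. They were Bcar1, the Src-bound scaffold p130Cas (−0.42 ± 0.09 SE, adjusted p = 0.00506), and Gnai2, an inhibitory G protein subunit (−0.32 ± 0.09 SE, adjusted p = 0.0406). Gnai2 was lost without any one array except KO array 4 (adjusted p = 0.0531 to 0.196). With the slide as a block 2 of the 21 were higher and 4 lower, where 7.49% of all genes were called. The caveolins, the palmitoylating enzymes Zdhhc7 and Zdhhc21, Src, Nos3 and Strn were not called. Among 20 immediate early genes, 12 genes of MAP kinase feedback, 15 insulin and PI3K adaptors and 27 growth factor ligands and receptors 0 were called, with 1, 2, 3 and 6 at an unadjusted p under 0.05, which 12.9% of all genes had.

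Secreted factors and their receptors gave single calls in both directions. Il11, an IL-6 family cytokine needed for decidualisation in mice, had levels of 0.19, −0.23, −0.22 and 0.06 in MISS KO E2, against 1.26, 1.28, 1.33 and 0.96 in MISS WT E2. KO was 2.39-fold lower (−1.26 ± 0.13 SE, adjusted p = 2.14e-06), and estradiol raised the gene by 3.81 in AF2 WT. Tgfb3 was lower (−0.88, adjusted p = 0.000144) and Bmp7 higher (0.88, adjusted p = 0.00498) within the TGF-β family. Wnt5b was lower (−0.79, adjusted p = 0.000664), while Lgr5, a receptor for R-spondins, was higher (0.84, adjusted p = 0.000457).

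Of 24 vascular factors, Nrp1, a coreceptor for VEGF and semaphorins (−0.72, adjusted p = 0.00245), and Pgf, a VEGF family ligand (−0.63, adjusted p = 0.0249), were lower and Vegfb was higher (0.40, adjusted p = 0.0319). Pgf and Vegfb were not called without several single arrays (Pgf without KO array 2, 3 or 4 or WT array 1 or 2, adjusted p = 0.072 to 0.0953, and Vegfb without KO array 2, 3 or 4 or WT array 1, 2 or 3, adjusted p = 0.0526 to 0.188). Vegfa had −0.05 and was not called. The calls were 12.5% of the list, against 2.82% of all genes.

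Water and ion transport gave 1 lower and 1 higher gene of 21 (9.52%, against 2.82% of all genes called). They were subunits of the same epithelial sodium channel. Scnn1a, its α subunit, had levels of 1, 0.78, 1.04 and 1.38 in MISS KO E2, against 2.09, 2.1, 2.11 and 2.12 in MISS WT E2, and was lower by −1.06 ± 0.19 (SE, adjusted p = 0.00154). Scnn1b, its β subunit, had levels of −0.34, −0.24, −0.51 and −0.1 in MISS KO E2, against −1.13, −1.24, −1.26 and −1.19 in MISS WT E2, and was higher by 0.91 ± 0.19 (SE, adjusted p = 0.00622). Neither overlapped. Of the list of estrogen and retinoid metabolism, Cyp26a1, which breaks down retinoic acid, was higher (1.48 ± 0.29 SE, adjusted p = 0.003). It was not called with normexp (0.38, adjusted p = 0.536) or in the authors' matrix (0.62, adjusted p = 0.167). In the same list Hsd17b1, which turns estrone into estradiol, was higher (1.14 ± 0.20 SE, adjusted p = 0.00118).

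Growth and biosynthesis lists gave few calls, where 2.82% of all genes were called and 12.9% had an unadjusted p under 0.05. At that share of calls, lists this short can hold 0. Among 25 genes of ribosome biogenesis, 20 tRNA synthetases, 21 genes of cholesterol synthesis and 19 of mitosis 0 were called, with 2, 0, 3 and 2 at an unadjusted p under 0.05. Of 23 genes of DNA replication Pole, the catalytic subunit of DNA polymerase ε, was lower (−0.76, adjusted p = 0.000176), while dimmer Pole probes gave −0.87 (adjusted p = 0.612) and 0.10 (adjusted p = 0.972). Of 23 genes under ATF4 only Chac1, an enzyme of glutathione breakdown, was called, and it was higher (1.11 ± 0.25 SE, adjusted p = 0.00966). Its KO and WT values overlapped, and it was not called without KO array 2 (adjusted p = 0.0536). No gene of keratins (21), the clock (18), prostaglandins (19), MHC class II (11) or matrix and proteases (30) was called, with 2, 3, 6, 0 and 8 at an unadjusted p under 0.05. For the clock, for prostaglandins and for matrix and proteases these unadjusted counts lay above the share of all genes. That of cholesterol synthesis lay slightly above it too. The interferon list (24) had Bst2, tetherin, lower (−0.69, adjusted p = 0.0054). Gli3, a Hedgehog transcription factor, was the only call of 20 Notch and Hedgehog genes (0.32, adjusted p = 0.012), and Tnnt3, a troponin, the only one of 14 striated muscle genes (0.85, adjusted p = 0.0295). Gli3 was not called without WT array 3 (adjusted p = 0.066), nor Tnnt3 without KO array 2 or 4 or WT array 1, 2 or 3 (adjusted p = 0.0733 to 0.108), and another Tnnt3 probe was not called. Of 22 progesterone and implantation genes Cyp26a1 was the only call.

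Markers of cell types gave few calls, where 2.82% of all genes were called and 12.9% had an unadjusted p under 0.05. Epithelial markers averaged 1.75 to 2.21 on MISS KO E2 arrays and 2.05 to 2.13 on MISS WT E2 arrays, stromal markers 2.99 to 3.42 and 3.08 to 3.32, and smooth muscle markers 4.04 to 4.26 and 4.11 to 4.39. Of 18 epithelial markers Tjp3 was higher (0.54, adjusted p = 0.0452), a call lost without KO array 1 or 2 or WT array 1, 2 or 3 (adjusted p = 0.075 to 0.188), and of 15 stromal markers Pdgfra was higher (0.67, adjusted p = 0.000468). Adipocyte markers ranged from −1.68 to 2.57 on MISS KO E2 arrays and from −0.57 to 1.85 on MISS WT E2 arrays, with 0 of 12 called and 1 at an unadjusted p under 0.05. Macrophage markers lay at 0.39 to 1.39 in MISS KO E2 and 0.90 to 1.26 in MISS WT E2. The groups overlapped for all of these lists. Markers of smooth muscle (14), endothelium (15), macrophages (11), granulocytes (10), lymphocytes (15), mesothelium (8), ovary and oviduct (8), bladder and blood (6) and nerve (10) had 0 called, with 0, 0, 1, 0, 2, 0, 2, 1 and 2 at an unadjusted p under 0.05. The part of cell types in the other results was not tested.

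Genes that respond to estradiol held a larger share of the calls than of all genes. On AF2 WT arrays estradiol raised 2969 genes by 2-fold or more (11% of all) and lowered 3875 (14.4%). Of the raised genes 237 were lower in MISS KO E2 than in MISS WT E2 (7.98%, against 1.95% of all genes) and 9 were higher. Of the lowered genes 121 were higher (3.12%, against 0.874% of all genes) and 25 were lower. Raised genes made up 45.3% of the genes lower in the mutant, and lowered genes 51.5% of those higher in it. The 237 ranged from 134 (without WT array 1) to 293 (without WT array 4), with 142 without KO array 3, 151 without WT array 2 and 149 without WT array 3. The 121 ranged from 50 (without WT array 3) to 240 (without WT array 4), with 70, 67, 58 and 65 without KO array 2, KO array 3, WT array 1 and WT array 2. In place of 237 and 121, a fit of only the 8 MISS E2 arrays gave 113 and 12, where 224 genes were lower and 39 higher. The 16 MISS arrays gave 152 and 51, normexp 282 and 69, quantile normalization 152 and 131, and the slide as a block 461 and 329.

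As a whole these genes shifted little. The raised genes averaged 1.615, 1.589, 1.505 and 1.55 on the MISS KO E2 arrays, against 1.809, 1.787, 1.776 and 1.611 on the MISS WT E2 arrays. KO array 1 lay just above WT array 4, so the groups met there. On placebo arrays the same genes averaged −0.24 to −0.12 in MISS KO and −0.18 to −0.05 in MISS WT. The lowered genes averaged −2.84, −2.81, −2.75 and −2.95 on the MISS KO E2 arrays, against −2.86, −2.92, −2.97 and −2.91 on the MISS WT E2 arrays, and the groups overlapped. The median difference was −0.12 over the raised genes and 0.10 over the lowered ones, against −0.05 over all genes. Within slides 1 to 4 the raised genes had −0.13, −0.15, −0.21 and −0.03 and the lowered ones 0.07, 0.13, 0.24 and −0.00, so slide 4 showed neither shift. Under placebo the medians were −0.01 and 0.10.

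**Figure D4:**
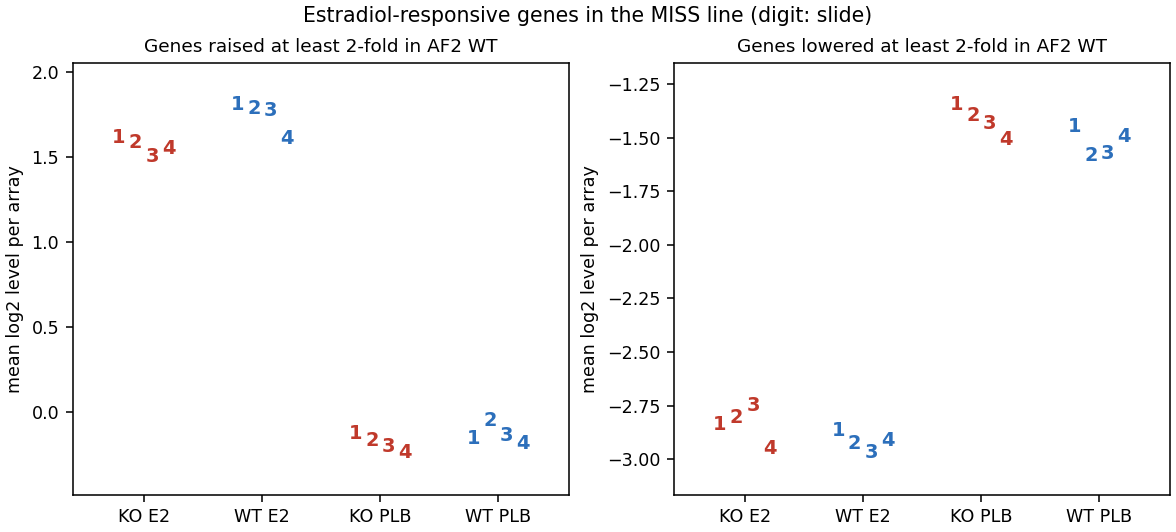
Mean level per array of the genes that estradiol raised and lowered by 2-fold or more in AF2 WT, in MISS KO E2, MISS WT E2, MISS KO PLB and MISS WT PLB, with the slide number at each point. Raised genes lie at 1.505 to 1.615 in MISS KO E2 and 1.611 to 1.809 in MISS WT E2, both far above the placebo arrays.

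The AF2 line differed in the same direction for most of the called genes. Its arrays do not enter the MISS differences, but both lines share 1 estimate of spread in the fit. Calls in the lines are therefore not independent. Of the 523 genes lower in MISS KO E2, 354 (67.7%) were also lower in AF2 KO E2 than in AF2 WT E2, with a median of −0.97 there, and 67 (12.8%) were higher. Of the 235 genes higher in MISS KO E2, 196 (83.4%) were higher in AF2 KO E2, with a median of 1.24, and 25 were lower. Over all genes 26.9% were lower and 30% higher in AF2 KO E2. Seen from the AF2 lists the shared genes were 4.89% of those lower and 2.43% of those higher.

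Some differences were present without the hormone. Between MISS KO PLB and MISS WT PLB 241 genes were called (0.897%), 113 higher (0.42%) and 128 lower (0.476%). Of the genes called under estradiol, 16 were lower in both conditions and 8 higher in both. Beside Akr1c14 and 4 kallikreins, the genes lower in both include Tff2, a secreted trefoil peptide (−1.77 under estradiol and −1.57 under placebo), Pcolce2, an enhancer of procollagen processing (−0.98 and −0.94), the potassium channel Kcnk5 (−0.98 and −0.86) and Bst2 (−0.69 and −0.79). Lgr5 (0.84 and 0.62) was among those higher in both. Scel is counted there too, although it was not well above background on any array under estradiol. Tff2, Pcolce2 and Kcnk5 were named after their values were seen.

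The difference between the genotypes itself differed between estradiol and placebo for 242 genes (0.901%), 176 with a more negative and 66 with a more positive value under estradiol. Of the 758 called genes, 172 were among them. The 5 most negative fitted values were those of Mdga1 (−3.02, adjusted p = 0.000221), Slc9a2 (−2.75), Col26a1, a collagen (−2.71, adjusted p = 0.00152), Disp2 and Fam163a. Disp2 and Fam163a were well above background on no MISS KO E2 array and on at most 2 of 4 arrays of either placebo group, so their size and rank are not known. Mdga1 had levels of −1.84, −1.98, −1.49 and −1.03 in MISS KO E2, against −0.06, 0.36, 0.19 and 0.61 in MISS WT E2, while under placebo it differed by 1.16 (adjusted p = 0.0546). The most positive was Tmem213 (3.55, adjusted p = 3.47e-05), with a placebo difference of −4.08 (adjusted p = 1.64e-09) that under estradiol was −0.53 (adjusted p = 0.44).

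Gli1, a transcription factor of the Hedgehog pathway (2.14), Oit1 (1.94), Tmem119 (1.63) and Dleu7 (1.62) followed. Part of each value came from a negative placebo difference, −1.15, −1.21, −0.73 and −0.67 in the same order. Tmem119 and Dleu7 were also called under estradiol itself, at 0.90 (adjusted p = 0.0103) and 0.95 (adjusted p = 0.0119). Without KO array 2 these had adjusted p of 0.0558 and 0.0511, and Tmem119 without WT array 3 had 0.0533. Gli1 had 0.996 under estradiol with adjusted p = 0.124, or 0.0449 with the slide as a block. A dimmer Gli1 probe gave 0.05 under estradiol and −0.33 under placebo. Oit1 had 0.73 under estradiol and was not called. Called in opposite directions under estradiol and placebo were 4 genes, named after their values were seen, Cpne5 (−0.73 and 0.44), Ano1, a calcium-activated chloride channel (−0.66 and 0.62), Nap1l2 (−0.55 and 0.69) and Irs3 (−0.51 and 0.60).

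**Figure D5:**
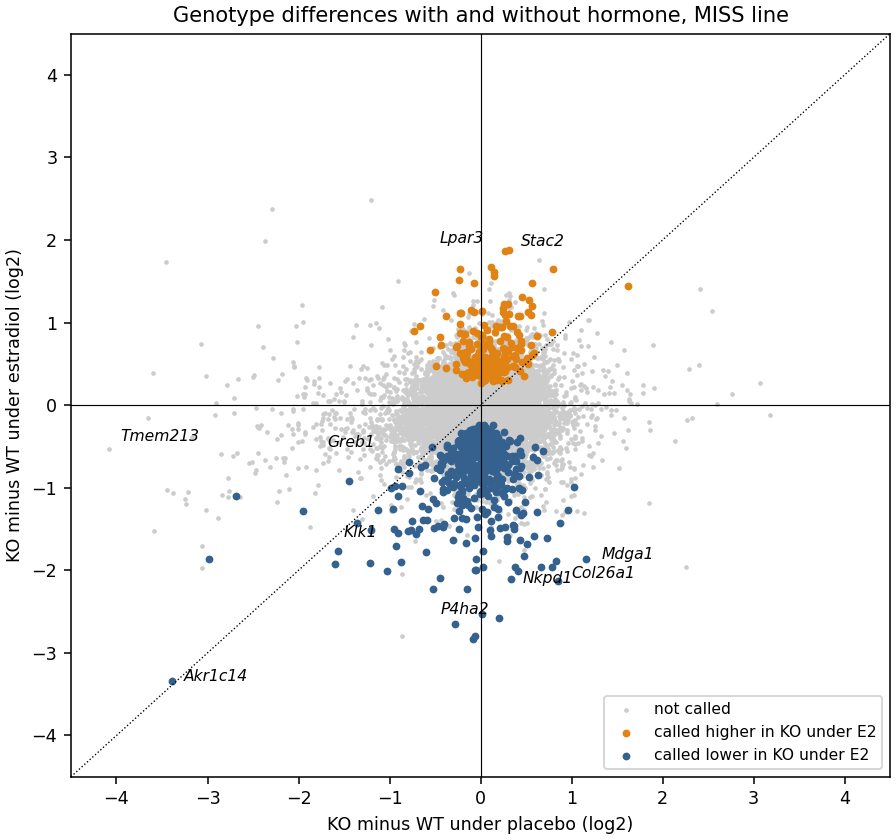
Log2 difference between MISS KO and MISS WT for every tested gene, under placebo (x axis) and under estradiol (y axis), with the genes called under estradiol coloured and a dotted line where both are equal. Akr1c14 lies on the dotted line at −3.39 and −3.34, whereas P4ha2 lies near zero under placebo and at −2.22 under estradiol.

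Distance from the targeted locus was set beside the calls. Within 5 Mb of Esr1 0 of 63 tested genes were called, within 10 Mb 1 of 86 (1.16%), within 20 Mb 6 of 163 (3.68%) and within 50 Mb 12 of 328 (3.66%), against 2.82% of all genes. Under placebo 1 of 34 genes within 2 Mb and 3 of 63 within 5 Mb were called, against 0.897% of all genes. The nearest called genes were Fuca2, a fucosidase (−0.84, adjusted p = 0.00262), Nhsl1 (−0.47, adjusted p = 0.0211), Myb, a transcription factor (−0.92, adjusted p = 0.00527, with overlap), a lincRNA interval at 21855725 to 21867925 (0.66, adjusted p = 0.0261) and Enpp3 (0.54, adjusted p = 0.00873). Tested over all probes, another Fuca2 probe gave −0.45 (adjusted p = 0.321) and was not called, while a further one gave −0.75 (adjusted p = 0.0174). Nhsl1, the lincRNA interval and Enpp3 lost their calls without single arrays. These were KO array 2 or 3 or WT array 1, 2 or 3 for Nhsl1 (adjusted p = 0.0629 to 0.113), KO array 1, 3 or 4 or WT array 1 or 2 for the interval (adjusted p = 0.0526 to 0.126) and WT array 1 for Enpp3 (adjusted p = 0.0554).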

How the data were processed

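Uterine RNA was hybridised by the authors to 1-colour Agilent arrays, 1 array per sample. Per the file headers, spots were extracted with Agilent Feature Extraction 10.10.1.1, and the processed signal is a background-subtracted intensity. Each spot also carries 0 or 1 values (score) for outliers, saturation and being well above background, per the file headers. The authors also deposited a matrix, on a log2 scale, of 43753 probes with column medians near 7.56, which served as an alternative. Its normalization is not given in the sources used here. Probe positions are mm9 in the deposited annotation.

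Each array had 59305 non-control spots for 55681 probes. Outlier spots were set missing, spots of a probe averaged, and the 75th percentile of log2 signal subtracted. A probe entered the test (40336 did) when at least 1 of the 8 groups had it well above background throughout, and the brightest stood for its gene (26873 genes, of which 8356 had more probes). Names came from the array, with 27235 probes matched by accession to RefSeq, which changed 3424 names. limma 3.58.1 (R 4.3.3) was fitted to 31 arrays in 8 groups, with 23 residual degrees of freedom and a prior of 2.38. P-values were adjusted by the Benjamini-Hochberg method. Replicates are samples whose labels do not say whether they share an animal or a cage, so p-values measure the spread between samples. Where the dimmer group had no array with a probe well above background, the fold is a bound, taken from the lowest signal that still passed on each of its arrays.

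Named genes were Esr1, the 15 largest called changes in each direction without overlap and with 1 sign on 4 slides, up to 4 called members of each of 45 lists, 10 known estradiol genes, the 5 largest differences between estradiol and placebo in each direction, and the 5 called genes nearest to Esr1. Areg, among those 10, is not analysed here, and results of some genes are not reported here. The members, lists and rules were chosen with earlier results of these data known. A further 7 lists were chosen after the values were seen. Alternatives were slide as a block, normexp, quantile, another centring, the authors' matrix, other filters, other sets of arrays, a trended prior, every probe and leaving out each array. The fit was tested on simulated data.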

Additional observations from a re-analysis of the deposited data

Results flagged for a closer look

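Among the 166 groups of 4 arrays of the named genes, 7 held an array far from the other 3, and chance gives about 1 in 20 groups. In MISS KO E2 these were Esr1 on array 2 (2.84, others 3.36 to 3.41), Wnt5b on array 4 (2.1, others 2.52 to 2.57), Gnai2 on array 4 (5.77, others 5.49 to 5.53) and Enpp3 on array 1 (0.37, others −0.03 to 0.03). In MISS WT E2 they were Rhd on array 2 (−4.9, others −4.38 to −4.35), Dnali1 on array 4 (−5.28, others −3.9 to −3.67) and Ecel1 on array 4 (−1.43, others −1.03 to −0.96).

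The KO minus WT difference under estradiol differed from that under placebo by the interaction test (limma, adjusted over all genes) for 29 of the named genes given here. The value under estradiol was more negative for Mdga1 (−3.02), Disp2 (−2.98), Slc9a2 (−2.75), Fam163a (−2.73), Col26a1 (−2.71), Crocc2 (−2.62), Nkpd1 (−2.43), Cyp3a25 (−2.37), P4ha2 (−2.08), Brsk2 (−1.69) and Il11 (−1.45). The values of Disp2, Fam163a and Cyp3a25 are fitted to signals that were well above background on no MISS KO E2 array and on few or none of the placebo arrays, so they are no sizes and have no rank. Smaller negative differences belonged to Scnn1a (−1.22), Klk1b8 (−1.06), Pole (−1.02), Dnajb9 (−0.99), Herpud1 (−0.81), Nrp1 (−0.79), Tgfb3 (−0.77) and Wnt5b (−0.76). It was more positive for Tmem213 (3.55), Gli1 (2.14), Oit1 (1.94), Tmem119 (1.63), Dleu7 (1.62), Stac2 (1.57), Jakmip1 (1.46), Spon2 (1.35), the lincRNA interval on chromosome 10 (1.22) and Fbxo32 (1.2).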

How the results depend on the processing

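The labels pair no samples by number. Each of the 4 slides held 1 array of either genotype, so a fit with the slide as a block compares the genotypes within slides. The main fit left the slide out, so genes given as not called rest on a fit without that block unless stated. That block gave 2013 called genes (741 higher, 1272 lower), all 758 among them, and 1121 in the test of estradiol against placebo. With only the 8 arrays compared 263 genes were called (39 higher, 224 lower), and with only the 16 MISS arrays 463 (113 higher) and 152 in that test. A minimum of 2-fold left 164 (32 higher, 132 lower). Leaving out 1 array gave 434 (WT array 1) to 1064 (WT array 4) called genes, 103 (WT array 3) to 436 (WT array 4) higher, 319 (WT array 1) to 628 (WT array 4) lower, and 161 to 354 in the test of estradiol against placebo. The median of the genes that estradiol raised in AF2 WT was −0.16 to −0.10 and of the lowered genes 0.08 to 0.14 over the same fits. The lowered genes had 0.003 with normexp and 0.15 with quantile normalization. Within slide 3 the medians were −0.21 and 0.24, and within slide 4 −0.027 and −0.003. ER chaperones called lower numbered 14 with the slide block, 4 with only the 8 arrays and 6 with quantile normalization, and the kallikreins 10 to 12 in the settings that keep all 8 arrays and 8 to 10 without 1 array. No call changed to the opposite direction in any setting, but a second Pole probe gave 0.10. The causes were not tested. Of 70 called named genes 51 kept the call without each array in turn. With only the 8 arrays 25 lost it, with the 16 MISS arrays 11, with normexp 8, with the authors' matrix 7 and with quantile normalization 3. Gdf15 became called with normexp (adjusted p = 0.00176), the authors' matrix (0.0419) and only the 8 arrays (0.0276). A WT E2 level under −2 was found for 81 of the 235 higher genes, 82 of the 523 lower ones and 40% of all genes.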

Other observations

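Further gene groups were looked at after the values were seen. They are counted beside 1.95% of all genes called lower and 0.874% called higher. Of 23 genes of collagen modification, 4 were lower in MISS KO E2, P4ha2, Pcolce2 (−0.98), Fkbp14, a prolyl isomerase of the ER (−0.60), and P4hb, which pairs with P4ha2 (−0.31), and 1 was higher, Adamts14, a procollagen peptidase (0.43). Of 15 polypeptide GalNAc transferases, which start mucin-type O-glycans, 3 were lower, Galnt14 (−1.40), Galnt10 (−0.61) and Galnt4 (−0.36). Of 8 pore subunits of voltage-gated calcium channels 3 were lower, Cacna1h (−1.36), Cacna1g (−0.63) and Cacna1a (−0.55), beside the higher channel adaptor Stac2. None of the members of these last 2 lists was higher. Of 3930 lincRNA intervals 10 were higher (0.254%) and 18 lower (0.458%), both below the shares over all genes.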
